A study of Mus musculus with 16 samples.

Results

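The CX C57BL/6J group comprised 4 of the 16 mice whose left ventricles were profiled, and it was set against the 12 mice of the other 3 groups. CX stands for castration. All mice were males killed at 12 weeks of age, and all had been operated at 3 to 4 weeks, either by castration or by a sham operation that left the gonads in place. The 4 groups, with 4 mice each, were CX C57BL/6J, sham C57BL/6J, CX C57.YA and sham C57.YA. C57.YA is the consomic strain in which the chromosome Y (chrY) of A/J mice replaces that of C57BL/6J on an otherwise C57BL/6J genome, so that sham C57BL/6J mice share the chrY of the CX C57BL/6J mice, CX C57.YA mice share their surgery, and sham C57.YA mice share neither. Total RNA of 1 mouse was hybridized to each Illumina MouseRef-8 v2.0 array, and each consomic or parental group stands for a single inbred line. The comparison asks which ventricular transcripts take a level in castrated carriers of the C57BL/6J chrY that was found in none of the other groups.

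A gene was counted for this group by 2 criteria. By the first, the CX C57BL/6J mean differed from the mean of each of the 3 other groups in the same direction, with an adjusted p under 0.1 in all 3 comparisons (limma, Benjamini-Hochberg over the 12764 probes tested). By the second, all 4 CX C57BL/6J arrays lay above the highest or below the lowest of the other 12 arrays. Levels are log2 signals after quantile normalization, and a difference of 1 on this scale is a change by a factor of 2. The overall difference of a gene is the CX C57BL/6J mean minus the average of the 3 other group means. The 3 pairwise comparisons share the CX C57BL/6J arrays and are not independent of each other.

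Heart muscle of the atria and of the ventricles uses different sets of contractile genes. Ventricular cardiomyocytes carry the myosin light chains Myl2 and Myl3, whereas atrial cardiomyocytes carry Myl7 and Myl4 and also make sarcolipin (Sln), a small inhibitor of the calcium pump of the sarcoplasmic reticulum. Both atrial light chains are present in the embryonic heart, and their genes are turned down in the ventricles as these mature. Castration removes the main source of testosterone, a hormone that acts on muscle growth, metabolism and vessel walls.

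From 11435 to 12212 probes were detected per array, and the array with the fewest was CX C57BL/6J replicate 2. The ventricular light chain Myl2 was bright throughout, with a level between 15.83 and 15.93 on all 16 arrays. Quantile normalization gives the brightest probes the same values on every array, so this level is no check of steadiness. Of the 5 tested genes on a list of androgen and polyamine genes (Odc1, Srm, Sat1, Smox and Igf1), 0 passed in the overall difference (limma, adjusted p under 0.1) and 0 had an unadjusted p under 0.05. Among all probes 11.1% passed as higher and 11.7% as lower, so that 5 genes are too few for a result about genes that respond to androgens. The androgen receptor was not tested. The arrays of 1 other group stood apart from each other: sham C57.YA replicates 3 and 4 differed from replicates 1 and 2 in genes such as Chrm2, the muscarinic acetylcholine receptor of the heart, at 10.14 and 10.78 against 8.46 and 8.76. The numbers of probes called for CX C57BL/6J are also given below without either pair. The counts of the gene lists, of the other groups set apart and of CX against sham C57.YA are given with all arrays only.

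In the overall difference, 1413 probes (11.1% of those tested) were higher and 1492 (11.7%) were lower in CX C57BL/6J hearts. Against sham C57BL/6J, 1124 probes passed (8.81%), against CX C57.YA 2992 (23.4%), and against sham C57.YA 3422 (26.8%). Far fewer probes separated the group from all 3 others at once: 127 (0.995%) were higher and 153 (1.2%) were lower than in each group. All 4 arrays lay above the other 12 for 154 probes (1.21%) and below them for 157 (1.23%). Both criteria were met by 81 probes of 73 named genes that were higher (0.635%) and by 89 probes of 80 named genes that were lower (0.697%).

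The same 2 criteria were met by 43 probes when sham C57BL/6J was the group set apart, by 354 for CX C57.YA and by 181 for sham C57.YA. The 170 probes of CX C57BL/6J were thus close in number to those of sham C57.YA. A few of the differences were large: 7 probes were more than 2-fold higher and 0 more than 2-fold lower. The median fold of the 81 higher probes was 1.29, and that of the 89 lower probes was 1.28.

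These counts depended on single arrays. Both criteria were met by 115 probes without CX C57BL/6J replicate 2, by 255 without its replicate 4 and by 113 without sham C57BL/6J replicate 4. Without CX C57BL/6J replicate 2, 1849 probes passed in the overall difference and 147 differed from each group. Without sham C57BL/6J replicate 3 or 4, 172 and 175 differed from each group, and 720 and 694 differed from sham C57BL/6J. Without CX C57BL/6J replicate 1 or 4, 580 and 582 probes lay outside the range of the other 12 arrays. With fewer arrays the range criterion is easier to meet, so this count can only stay or rise from 311. A rise in it, or in the count of both criteria, is therefore no sign of dependence on an array. Without sham C57.YA replicates 1 and 2, 3814 probes passed in the overall difference, 4100 differed from sham C57.YA, 439 differed from each group, 431 lay outside the range and 277 met both criteria. Without replicates 3 and 4 these numbers were 2219, 1481, 226, 325 and 143. The comparisons with sham C57BL/6J and CX C57.YA gave 1401 and 3300 probes without the first pair and 1481 and 3383 without the second. Of the 29 named genes described below, 0 ceased to differ from each group without the first pair and 2, Abcb10 and Ddx6, without the second. With median scaling in place of quantile normalization, both criteria were met by 72 probes, 59 of them among the 170, and 75.4% of the calls of the overall difference were higher, against 48.6%. The same share rose from 45.4% to 80.3% among probes that differed from each group and from 49.5% to 86.0% among those outside the range. In the pairwise comparisons it rose from 46.5% to 65.0% against sham C57BL/6J, from 50.5% to 64.8% against CX C57.YA and from 49.2% to 80.7% against sham C57.YA.

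The genes furthest above all other groups were those of the atrial contractile apparatus. Myl7, the atrial regulatory myosin light chain, measured 9.98, 11.23, 9.26 and 9.03 in the 4 CX C57BL/6J hearts. It lay between 6.30 and 6.85 in sham C57BL/6J, between 6.51 and 7.06 in CX C57.YA and between 6.52 and 6.90 in sham C57.YA. The probe was detected on all 4 CX C57BL/6J arrays and, of the other 12, on 1 array of CX C57.YA alone. The overall difference was 3.21 ± 0.25 (SE of the fit, adjusted p = 1.79e-07). Since neither sham group had a detected signal, the fold is a bound there: at least 7.53-fold higher than in sham C57BL/6J and at least 7.54-fold higher than in sham C57.YA. In CX C57.YA, with 1 detected array of 4, no fold is given.

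Myl4, the atrial essential light chain, was detected on every array and so had a measured level in each group. It stood at 11.83, 13.11, 11.43 and 11.30 in CX C57BL/6J, against 8.67 to 8.93 in sham C57BL/6J, 8.60 to 9.50 in CX C57.YA and 8.73 to 8.96 in sham C57.YA. The group means were 11.92 ± 0.83, 8.80 ± 0.11, 8.91 ± 0.41 and 8.82 ± 0.11 (SD, n = 4). The lowest CX C57BL/6J heart was thus well above the highest heart of any other group. Myl4 was 8.66-fold higher than in sham C57BL/6J, 8.05-fold higher than in CX C57.YA and 8.55-fold higher than in sham C57.YA (overall difference 3.07 ± 0.22, adjusted p = 8.99e-08).

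Sln measured 9.18, 10.61, 9.15 and 8.61 in the CX C57BL/6J hearts and at most 7.20 elsewhere, the highest value being that of CX C57.YA replicate 1. Its overall difference was 2.92 ± 0.22 (adjusted p = 1.79e-07), and it was at least 5.36-fold higher than in sham C57BL/6J. Mybphl, which encodes a myosin-binding protein enriched in atrial muscle, measured 8.52, 9.67, 8.34 and 7.99, and its other 12 values, between 6.28 and 6.83, were all below detection. It was at least 3.18-fold higher than in sham C57BL/6J, at least 3.23-fold higher than in CX C57.YA and at least 3.19-fold higher than in sham C57.YA (overall difference 2.05 ± 0.18, adjusted p = 8.61e-07). Hamp, the gene of hepcidin, the hormone that lowers iron export from cells, was below detection on the same 12 arrays (6.06 to 6.57). It measured 7.72, 8.68, 7.85 and 6.97 in CX C57BL/6J, at least 1.80-fold higher than in sham C57BL/6J (overall difference 1.59 ± 0.18, adjusted p = 1.74e-05). The probe of its close relative Hamp2, chosen for display after its values were seen, lay between 6.66 and 7.09 in CX C57BL/6J and between 6.58 and 7.01 elsewhere, so the groups overlapped (adjusted p = 0.191).

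These 5 genes shared the order of the 4 CX C57BL/6J hearts at both ends. Replicate 2 was the highest and replicate 4 the lowest for each of them. Within the group they were also the most variable of the named genes, with a range of 1.68 to 2.20 on the log2 scale, whereas the ranges of the other 25 named genes lay between 0.104 and 0.893. Without replicate 2 the overall difference was 2.76 for Myl7, 2.67 for Myl4, 2.51 for Sln, 1.70 for Mybphl and 1.30 for Hamp. For Myl7, Sln, Mybphl and Hamp these differences are taken against signals at background level in nearly all of the other hearts, so that they are no measured folds.

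**Figure D1:**
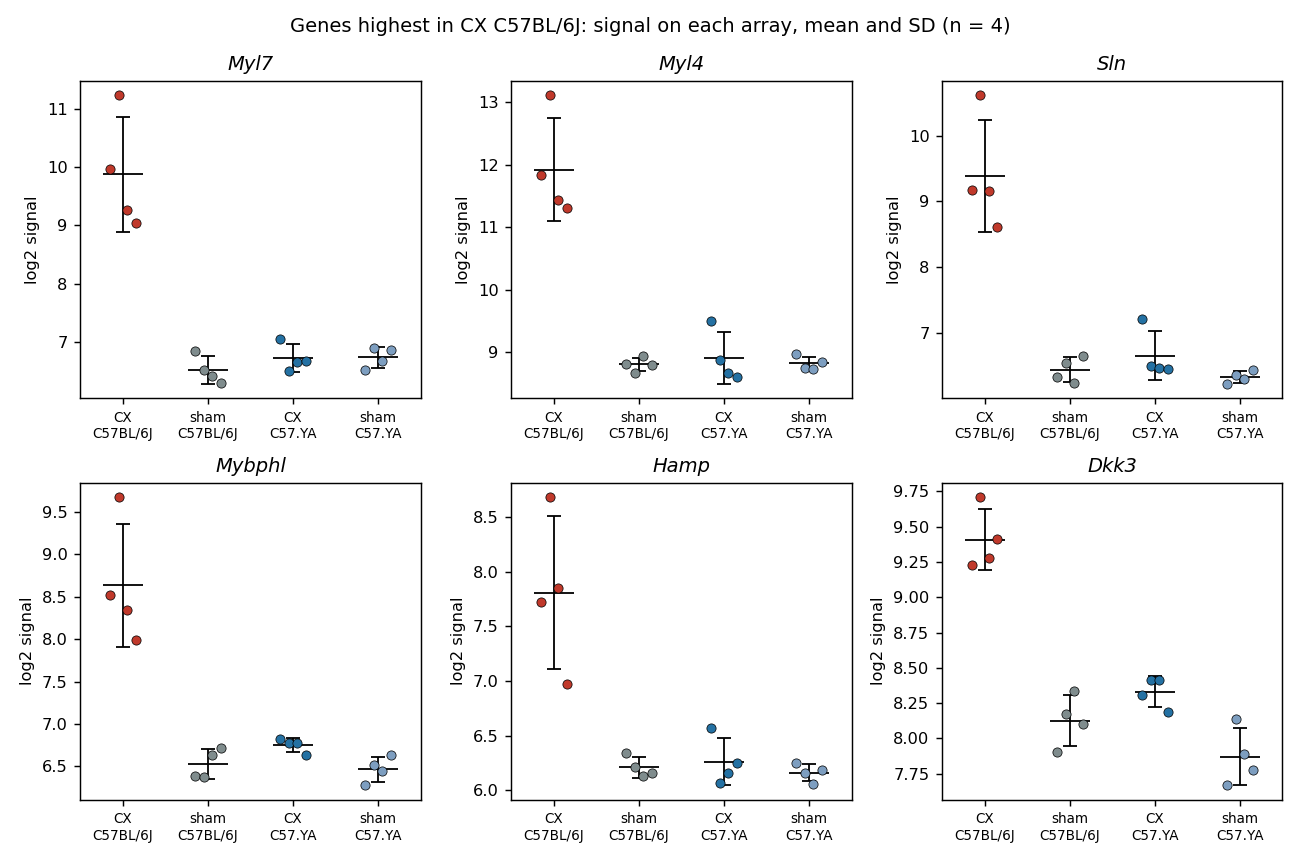
Log2 signal (y axis, 1 scale per gene) of Myl7, Myl4, Sln, Mybphl, Hamp and Dkk3 on each array of the 4 groups (x axis); points are mice in replicate order, lines are group means and bars are SD (n = 4). All 4 CX C57BL/6J hearts lie above the other 12 for each gene, and replicate 2, the second red point, is the highest in every panel.

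The sequence before the start of 4 of these genes is shown because they moved together on the same 4 arrays. The 150 bases upstream of a RefSeq start are given for the GRCm38.p6 build, on the strand of the gene, at chr11:5898783-5898932 (Myl7, minus strand), chr11:104550513-104550662 (Myl4, plus strand), chr3:108364761-108364910 (Mybphl, plus strand) and chr7:30944030-30944179 (Hamp, minus strand). The Myl4 window lies inside the span of the gene (chr11:104546017-104587215), before an internal start. Those of Myl7, Mybphl and Hamp adjoin the outer end of the gene. Capitals mark the CArG box, the site class of serum response factor, and GATAA, the core of GATA factor sites, each searched on both strands, where the reverse of GATAA reads TTATC; no 2 matches overlapped.
Myl7: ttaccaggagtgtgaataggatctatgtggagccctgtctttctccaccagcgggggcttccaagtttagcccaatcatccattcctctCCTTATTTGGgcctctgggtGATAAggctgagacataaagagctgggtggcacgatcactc
Myl4: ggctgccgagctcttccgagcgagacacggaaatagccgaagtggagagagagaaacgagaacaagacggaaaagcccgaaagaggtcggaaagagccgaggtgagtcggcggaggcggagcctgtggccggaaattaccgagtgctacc
Mybphl: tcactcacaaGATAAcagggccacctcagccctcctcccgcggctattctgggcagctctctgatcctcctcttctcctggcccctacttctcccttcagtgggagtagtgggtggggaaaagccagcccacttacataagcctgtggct
Hamp: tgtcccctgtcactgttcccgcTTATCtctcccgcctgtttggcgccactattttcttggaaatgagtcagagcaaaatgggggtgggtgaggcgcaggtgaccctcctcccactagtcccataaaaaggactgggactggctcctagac
Myl7 held a CArG box at positions -61 to -52 from the start and GATAA at -41 to -37. Mybphl held GATAA at -140 to -136, and Hamp held it at -128 to -124 on the opposite strand. Myl4 held neither set of letters in its internal window, and the bases before its outermost start were not searched. Of 32851 RefSeq promoters of the same length, 0.916% held a CArG box and 13.3% held GATAA. These matches describe the letters alone.

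Other genes of atrial muscle did not follow Myl7. Of the 16 genes on the atrial list, 13 were tested, 5 were higher, 3 were lower and 5 did not pass, beside 11.1% higher and 11.7% lower among all probes, with a median difference of -0.03 beside 0.00625 for all tested probes. The 5 higher genes were Myl7, Myl4, Sln, Mybphl and Dkk3, and each of them met both criteria. Myl7, Myl4 and Sln are the markers of this group. Myl7, Sln and Mybphl were tested only because CX C57BL/6J arrays detected them. The count of 5 is therefore a description. Nppa, the gene of atrial natriuretic peptide, measured 13.95 to 14.33 in CX C57BL/6J, 14.36 to 14.57 in sham C57BL/6J, 13.41 to 13.82 in CX C57.YA and 14.19 to 14.69 in sham C57.YA, with an overall difference of -0.02 (adjusted p = 0.911). The genes of the transcription factor Nr2f2, the gap junction protein Gja5 and the lipid transfer protein Stard10 fell by 0.24, 0.21 and 0.27. Bmp10 and Kcnj5 did not pass the detection filter. The summed linear signal of the list ranged from 26400 to 34100 in CX C57BL/6J, 26000 to 29400 in sham C57BL/6J, 16700 to 20200 in CX C57.YA and 23600 to 32100 in sham C57.YA. In RNA of a whole ventricle, more cells of a type and more RNA per cell cannot be told apart. The part of atrial tissue in the other differences of the group was not tested; with a covariate, nearly confounded with the group, that averaged Myl7, Myl4, Mybphl and Sln per array, 41 probes passed in the overall difference in place of 2905.

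Among 7 genes of ventricular muscle, Hey2, a repressor of atrial genes, fell by 0.21 (adjusted p = 0.0749) and Kcnip2, a potassium channel subunit, rose by 0.33 (adjusted p = 0.0142), and neither differed from each group. Myl2 and Myl3 had overall differences of 0.01 or less. Of the 11 genes of the conduction system, 3 were tested, and Irx3 alone passed, at 11.59 to 12.08 in CX C57BL/6J against 11.17 to 12.13 in sham C57BL/6J, so that these 2 groups overlapped. Hcn4, Shox2 and Isl1, genes of the pacemaker, were not tested.

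Dkk3, a secreted protein of the dickkopf family, was the next highest gene and the least variable of those above 2-fold. It measured 9.23, 9.71, 9.28 and 9.42 in CX C57BL/6J and 7.67 to 8.42 in all other hearts, with no overlap. It was 2.43-fold higher than in sham C57BL/6J, 2.11-fold higher than in CX C57.YA and 2.91-fold higher than in sham C57.YA (overall difference 1.30 ± 0.09, adjusted p = 8.99e-08). A second probe of the gene also met both criteria, at 1.25.

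Coq10b and Adhfe1, whose products act in mitochondria, were also higher than in each group. Coq10b, which binds coenzyme Q in mitochondria, measured 11.54 to 11.68 against at most 11.39 (overall difference 0.60), and a second probe, at 0.87, met both criteria as well. The Coq10b difference was 1.08 against sham C57.YA and 0.33 against CX C57.YA. Without sham C57.YA replicates 1 and 2 the overall difference of Coq10b was 0.58, and without replicates 3 and 4 it was 0.63. The second probe split that group, at 10.58 and 10.44 in replicates 1 and 2 against 9.76 and 9.79 in replicates 3 and 4. Adhfe1, a mitochondrial dehydrogenase, measured 10.09 to 10.49 against at most 10.06 (overall difference 0.81), but its comparison with sham C57BL/6J was close to the threshold (adjusted p = 0.0938), and its 2 other probes had differences of 0.26 and 0.16. Adhfe1 differed from each group in 14 of 28 settings and lost that call without any of CX C57BL/6J replicates 1 to 3, of sham C57BL/6J replicates 2 to 4 or of CX C57.YA replicates 1 to 3. With median scaling Adhfe1 no longer lay outside the range.

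Of 18 tested genes of fatty acid oxidation, 4 were higher and 3 were lower, beside 11.1% and 11.7% of all probes. Pdk4, the kinase that inhibits pyruvate dehydrogenase, passed overall (0.88, adjusted p = 0.0138) but measured 12.42 to 14.27 in CX C57BL/6J and 12.57 to 12.89 in sham C57.YA. Among 14 genes of oxidative phosphorylation, 1 was higher and 0 were lower (Cyc1, 0.18). Of 16 glycolytic genes, 3 were higher and 2 were lower.

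The other higher genes served diverse functions and had small differences, which were not always alike against the 3 groups. Inka2, an inhibitor of the kinase PAK4, measured 8.63, 8.61, 8.77 and 8.72 in CX C57BL/6J and 7.85 to 8.37 elsewhere (overall difference 0.63 ± 0.07, adjusted p = 9.87e-06), and all 3 of its tested probes met both criteria. Ccl4, a chemokine, measured 7.36 to 7.46 in CX C57BL/6J, where it was detected on all 4 arrays, and 6.50 to 7.19 in the other groups, where 1 array of each detected it (overall difference 0.57). Rpl22, a protein of the large ribosomal subunit, differed by 0.55, Prmt2, an arginine methyltransferase, by 0.55, Pdzd3, a scaffold protein, by 0.55 and Myl12b, a light chain of non-muscle and smooth muscle myosin, by 0.65. For Myl12b the probes disagreed, since a second one showed 0.58 and the third, the brightest, -0.02 (adjusted p = 0.882). Prmt2 differed by 0.28 from sham C57BL/6J and by 0.69 from each C57.YA group. Sham C57BL/6J was itself 0.40 above sham C57.YA for this gene (limma, adjusted p = 0.00662). The other probe of Prmt2, at 0.41, did not pass against sham C57BL/6J (limma, adjusted p = 0.353). Without CX C57BL/6J replicate 2, Prmt2 and Rpl22 no longer differed from each group, and the same held for Rpl22 without sham C57BL/6J replicate 1 or 4.

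**Figure D2:**
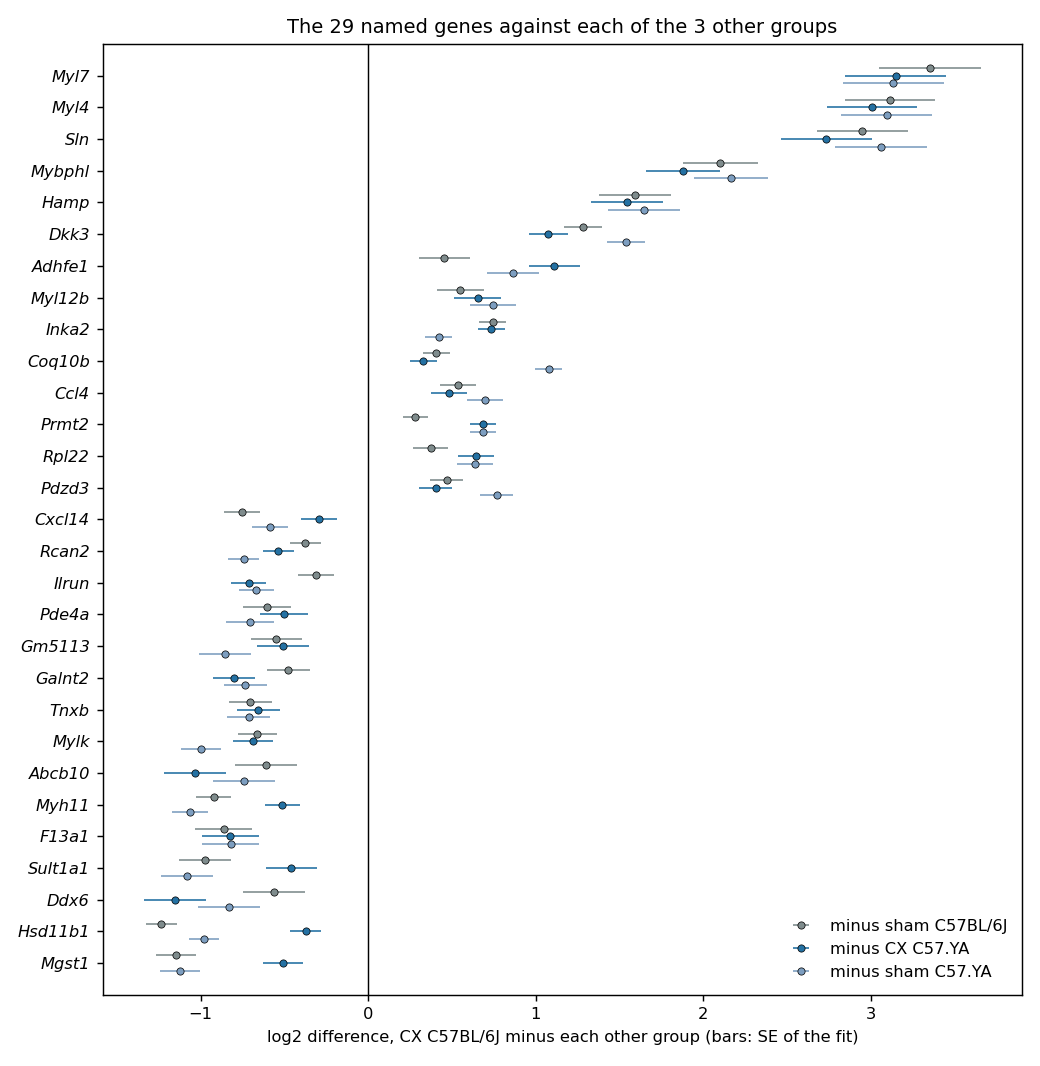
Log2 difference (x axis) between CX C57BL/6J and each of the 3 other groups for the 29 named genes reported (y axis); points are estimates and bars are SE of the fit. All 3 differences of every gene lie on the same side of 0, as the choice of the genes required; Coq10b, Hsd11b1 and Mgst1 show how unequal the 3 can be.

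The lower genes had no counterpart to Myl7 in size. Hsd11b1, the enzyme that regenerates active glucocorticoid from its inactive form, measured 9.93, 9.86, 9.50 and 9.56 in CX C57BL/6J. It lay at 10.88 to 11.02 in sham C57BL/6J, 9.93 to 10.19 in CX C57.YA and 10.61 to 10.78 in sham C57.YA. CX C57BL/6J was thus lowest and CX C57.YA next, the nearest arrays of the 2 groups being 0.0046 apart, while both sham groups were far above. Hsd11b1 was 2.35-fold lower than in sham C57BL/6J, 1.29-fold lower than in CX C57.YA and 1.97-fold lower than in sham C57.YA (overall difference -0.86 ± 0.08, adjusted p = 8.54e-07). Its 2 other probes, at -0.80 and -0.85, differed from each group but did not lie outside the range. Of 12 tested genes that glucocorticoids induce, 1 was higher (Pdk4) and 4 were lower, against 11.1% and 11.7% of all probes, and 0 differed from each group.

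Mgst1, a microsomal glutathione transferase, followed the same order of groups. It measured 10.40, 10.70, 10.26 and 10.61 in CX C57BL/6J, 11.52 to 11.91 in sham C57BL/6J, 10.75 to 11.16 in CX C57.YA and 11.40 to 11.81 in sham C57.YA. The fold differences were 2.22, 1.42 and 2.18 in that order (overall difference -0.93 ± 0.10, adjusted p = 9.87e-06). Sult1a1, a sulfotransferase of phenols, measured 10.24 to 10.85 in CX C57BL/6J, 10.93 to 11.24 in CX C57.YA and 11.24 to 12.02 in the sham groups (overall difference -0.84 ± 0.13, adjusted p = 4.12e-04). Without CX C57BL/6J replicate 4 or CX C57.YA replicate 3, Sult1a1 no longer differed from each group. With median scaling, Hsd11b1 and Sult1a1 kept their direction but did not differ from each group. Under the same scaling Hsd11b1, Sult1a1 and Mgst1 no longer lay outside the range.

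Genes of the contractile apparatus of smooth muscle were also among the lowest. Myh11, the smooth muscle myosin heavy chain, measured 8.54, 8.01, 8.46 and 8.33 in CX C57BL/6J. It lay at 9.08 to 9.34 in sham C57BL/6J, 8.72 to 8.99 in CX C57.YA and 9.22 to 9.56 in sham C57.YA, with no overlap, and was 1.89-fold, 1.43-fold and 2.09-fold lower than in these groups (overall difference -0.83 ± 0.09, adjusted p = 8.33e-06). Mylk, the kinase that activates smooth muscle myosin, measured 8.43, 7.96, 8.55 and 8.35 against at least 8.83 elsewhere (overall difference -0.78 ± 0.10, adjusted p = 5.97e-05), and its second probe also met both criteria, at -0.77. Of the 6 tested smooth muscle markers, 3 were lower (Myh11, Mylk and Tagln) and 0 were higher, beside 11.7% lower and 11.1% higher among all probes, with a median of -0.17. Tagln, an actin-binding protein detected on 0 of the 4 CX C57BL/6J arrays, had a difference of -0.24, and its comparison with CX C57.YA did not pass (adjusted p = 0.919). The summed signal of the list overlapped between groups, at 16000 to 27000 in CX C57BL/6J, 19300 to 27700 in sham C57BL/6J, 13600 to 21800 in CX C57.YA and 19200 to 29300 in sham C57.YA. The part of the number of vessels in these samples was not tested.

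Tnxb and F13a1 overlapped among the 3 other groups and were lower in CX C57BL/6J. Tnxb, the matrix protein tenascin-X, measured 9.59, 8.84, 9.57 and 9.64 in CX C57BL/6J and 9.93 to 10.25 in the other 12 hearts (overall difference -0.69 ± 0.11, adjusted p = 4.69e-04), and all 3 of its probes met both criteria. Replicate 2 was far below the other 3, and without it the difference was -0.50 (adjusted p = 2.50e-04). F13a1, the A subunit of coagulation factor XIII, which cardiac macrophages express, lay between 9.54 (replicate 2) and 10.35 in CX C57BL/6J and between 10.55 and 11.31 elsewhere (overall difference -0.84 ± 0.14, adjusted p = 9.77e-04). Of 8 tested macrophage markers, 5 were lower and 0 were higher, against 11.7% and 11.1% of all probes, with a median of -0.29: besides F13a1 these were Cd163, Mrc1, Lyz2 and C1qb, with differences of -0.29 to -0.38. Cd68 and Csf1r were not tested. The summed signal of the macrophage list was 7460 to 10800 in CX C57BL/6J, 10500 to 11800 in sham C57BL/6J, 10700 to 14100 in CX C57.YA and 9950 to 11300 in sham C57.YA, and its part in the level of F13a1 was not tested.

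**Figure D3:**
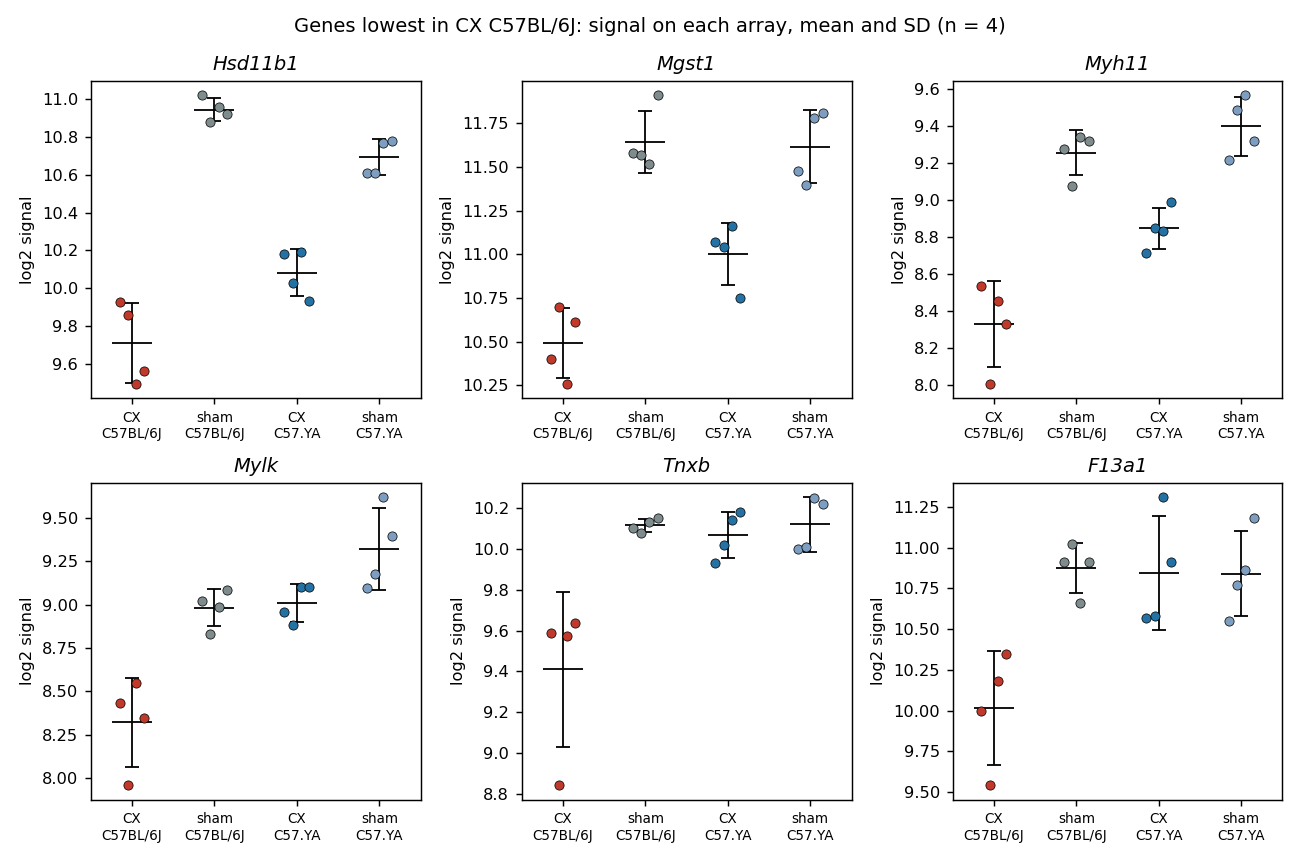
Log2 signal (y axis, 1 scale per gene) of Hsd11b1, Mgst1, Myh11, Mylk, Tnxb and F13a1 on each array of the 4 groups (x axis); points are mice in replicate order, lines are group means and bars are SD (n = 4). For Hsd11b1, Mgst1 and Myh11 the CX C57.YA hearts lie between the CX C57BL/6J and the sham hearts, whereas for Tnxb and F13a1 the 3 other groups overlap.

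The remaining named lower genes had overall differences between -0.55 and -0.85. They comprised Ddx6 (-0.85), an RNA helicase of processing bodies, Abcb10 (-0.79), a transporter of the inner mitochondrial membrane, Galnt2 (-0.67), which starts mucin-type glycosylation, and the predicted gene Gm5113 (-0.64). Pde4a, which degrades cyclic AMP, differed by -0.60, Ilrun, a regulator of inflammation and lipids, by -0.56, Rcan2, an inhibitor of calcineurin, by -0.55, and the chemokine Cxcl14 by -0.55. Several of them rested on dim or discordant probes. Abcb10 was detected on 2 of 4 CX C57BL/6J arrays and Galnt2 on 3 of 4. The other probe of Abcb10 and both other probes of Galnt2 did not pass, with differences of -0.10 and of 0.01 and -0.09, and all 3 of these probes were brighter than the named ones. Both other probes of Rcan2 were also brighter, and their differences of -0.12 (adjusted p = 0.171) and -0.22 (adjusted p = 0.0265) did not separate CX C57BL/6J from CX C57.YA. The other probe of Cxcl14 showed -0.40, but its comparison with CX C57.YA did not pass (adjusted p = 0.417). The other probes of Ddx6, at -0.62, -0.23 and -0.60, did not pass against sham C57BL/6J (limma, adjusted p = 0.330, 0.701 and 0.283). The same held for the other probe of Pde4a, at -0.36 (adjusted p = 0.683). Ddx6, Abcb10 and Ilrun had adjusted p = 0.0845, 0.0637 and 0.0973 against sham C57BL/6J. Leaving out any of the CX C57BL/6J arrays took Ddx6 and Ilrun out of the genes that differed from each group. Galnt2, Gm5113 and Abcb10 left them without CX C57BL/6J replicate 2 or sham C57BL/6J replicate 4, and also without sham C57BL/6J replicate 3 (Galnt2, Abcb10) or 1 (Gm5113). Cxcl14 left them without CX C57BL/6J replicate 1 or 4 or CX C57.YA replicate 1 or 3. With any sham C57BL/6J or CX C57.YA array left out Ilrun was lost as well, and Ddx6 without sham C57BL/6J replicate 1 or 3 or CX C57.YA replicate 1. With median scaling Rcan2, Ilrun and Ddx6 did not differ from each group. Under the same scaling Rcan2, Ilrun, Ddx6, Cxcl14, Pde4a and Abcb10 no longer lay outside the range.

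Castration was also compared with the sham operation in C57.YA, in arrays that hold no CX C57BL/6J mouse. In that comparison 9.55% of all probes were higher and 10.1% were lower in CX C57.YA. Of the 81 probes that set CX C57BL/6J apart as higher, 14 were higher (17.3%) and 1 was lower in CX C57.YA. Of the 89 lower probes, 0 were higher and 20 were lower (22.5%). The median differences in C57.YA were 0.06 and -0.10, beside a value of -0.0004 for all probes. These 8 arrays had entered the choice of the members, so the counts are a description.

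By gene, the named members fell into different patterns. Lower in CX than in sham mice of both strains were 6 genes. Hsd11b1, Mgst1, Sult1a1 and Myh11 had differences of -1.23, -1.15, -0.98 and -0.92 in C57BL/6J and of -0.61, -0.62, -0.62 and -0.55 in C57.YA, and Mylk and Cxcl14 had -0.66 and -0.75 against -0.31 and -0.29. Coq10b, Dkk3 and Pdzd3 were higher in CX mice of both strains, at 0.41, 1.28 and 0.47 in C57BL/6J and at 0.75, 0.46 and 0.37 in C57.YA. Inka2 was higher by 0.74 in C57BL/6J and lower by -0.31 in C57.YA (adjusted p = 0.0145), the only named gene that passed in opposite directions. This holds for the named probe, with means of 7.945 in CX C57.YA and 8.257 in sham C57.YA. On its other probes these means were closer, at 7.729 and 7.841 and at 7.895 and 7.931. For Myl4, which was detected on all arrays, the difference in C57.YA was 0.09 (adjusted p = 0.871). Myl7 and Sln were detected on 1 of the 8 C57.YA arrays and Mybphl and Hamp on 0, so that a difference between CX and sham mice could not be measured in that strain, and their interaction reflects the level in CX C57BL/6J. The difference between the strains was tested for each named gene as the interaction of strain and surgery. It passed for 11 of the 29 reported, beside 368 of all 12764 tested probes. The 11 included Myl4 (3.03, adjusted p = 2.02e-04), Dkk3 (0.82, adjusted p = 0.0127) and Inka2 (1.06, adjusted p = 5.06e-05). The interaction did not pass for Mgst1 (-0.53, adjusted p = 0.128), Sult1a1 (-0.35, adjusted p = 0.467) or Myh11 (-0.37, adjusted p = 0.239). Since the genes were chosen on the same arrays and group means that enter the interaction, these tests describe the chosen genes alone and are no independent support.

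**Figure D4:**
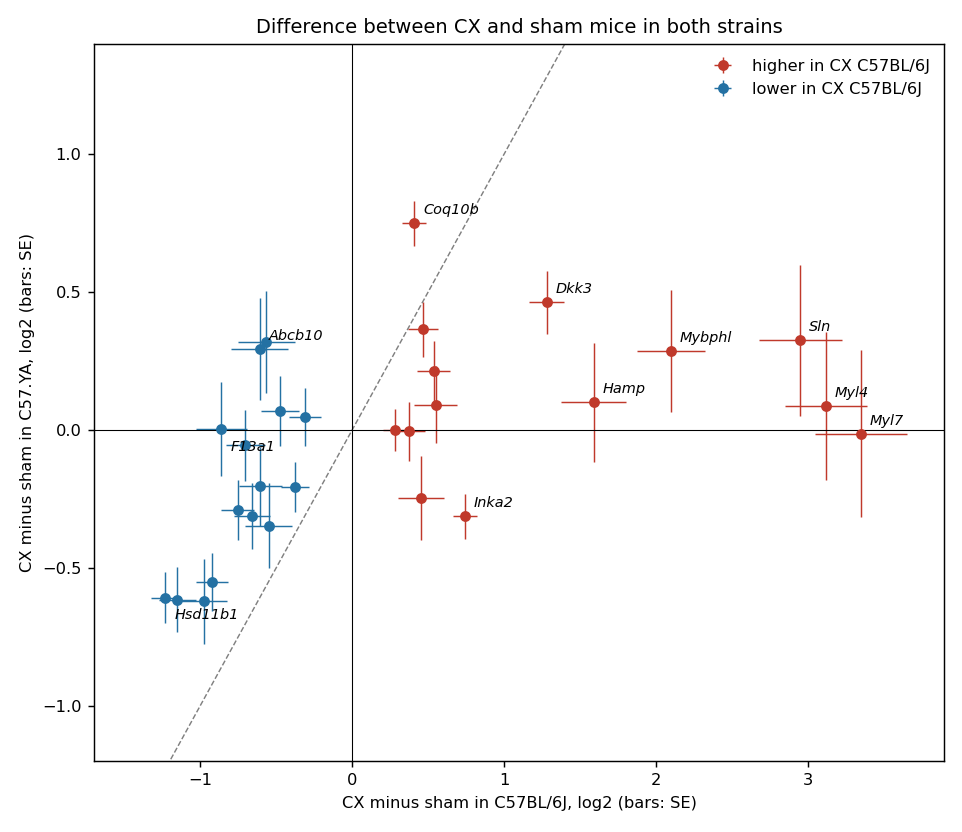
Log2 difference between CX and sham mice in C57BL/6J (x axis) and in C57.YA (y axis, drawn on a larger scale) for the 29 named genes reported; bars are SE of the fit, colours give the direction in CX C57BL/6J and the dashed line marks equal differences. Myl4 lies far to the right near 0 on the y axis, as do Myl7, Sln, Mybphl and Hamp, which were at background level in C57.YA, and Hsd11b1 lies low in both strains.

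Of the 170 member probes, 8 had no gene name. Among the 81 higher ones, 71 were detected on all 16 arrays, and 7 (of Myl7, Sln, Mybphl, Hamp, Ccl4, Kif22 and Slc13a4) were detected on 2 or more arrays of CX C57BL/6J alone, so that they were tested only because they were high there. Among the 89 lower ones, 80 were detected on all 16 arrays. The 66 higher probes not named by the rule differed by 0.198 to 1.25 and the 74 lower ones by -0.228 to -0.765, the outermost of each being second probes of Dkk3 and Mylk. The other tested probes of these genes, by construction, did not meet both criteria. For the higher genes there were 51, of which 43 had the same sign. In the same direction 23 (45.1%) passed, beside 11.1% of all probes, with a median difference of 0.15. For the lower genes there were 67, of which 60 had the same sign. In the same direction 37 (55.2%) passed, beside 11.7% of all probes, with a median of -0.22. In both sets 0 passed in the opposite direction. These probes measured the chosen genes on the arrays used for the choice, so the counts are a description and no independent support. The member genes were spread over the autosomes, at 1.04% of the tested genes of chromosome 8 to 2.49% of those of chromosome 17, with 3 of 281 on chromosome X and 0 of 4 on chrY. Among all named genes tested, 153 of 8849 were members, so that 4 genes are too few for a result about chrY.

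Replicate 2 was the outermost of the CX C57BL/6J arrays for 48 of the 81 higher and 42 of the 89 lower probes, against 4 to 16 and 13 to 19 for each other array. It was the innermost for 9 of each. Replicate 2 was thus far out in many genes besides the atrial ones, and of the 170 probes 93 were among the 115 that met both criteria without it.

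Of the 280 probes that differed from each group, 110 had at least 1 array inside the range of the other 12. An example is the predicted gene Gm773, chosen for display after its values were seen, whose probe at the edge of the first criterion measured 7.62 and 7.61 in CX C57BL/6J replicates 1 and 2 but 6.14 and 6.26 in replicates 3 and 4, against at least 6.09 and at most 6.4 elsewhere. A second Gm773 probe split the 4 hearts in the same way, at 8.12 and 8.14 against 6.18 and 6.30. The largest of the 3 adjusted p of the first probe was 0.0993. At the same edge, Pigk, a lower gene, was just inside at 0.0998, and Dusp28 and Itpr2 were just outside at 0.102 and 0.101. Of the 311 probes outside the range, 141 did not differ from each group. Sorcs2 and Ndrg1 were inside by 0.0002 and 0.0012 on the log2 scale, while Cdc45 and Ldah touched the range.

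Gene lists for cell types and responses showed where the overall difference was shared with another group. Of 10 hypertrophy genes, 6 were lower and 0 were higher, beside 11.7% and 11.1% of all probes, with a median of -0.27. They were Nppb, Acta1, Myh7, Rcan1, Xirp1 and Timp1, and 0 of them differed from each group. Acta1, skeletal muscle actin, measured 12.54 to 12.76 in CX C57BL/6J, below sham C57BL/6J (13.81 to 14.44), above CX C57.YA (11.83 to 12.35) and overlapping sham C57.YA (12.74 to 13.61). Myh7, the slow myosin heavy chain, lay below all other arrays at 7.82 to 8.19, but sham C57BL/6J, at 8.22 to 8.45, was close (adjusted p = 0.469). Of 6 tested genes of MHC class II presentation, 5 were higher and 0 were lower, against 11.1% and 11.7% of all probes, and the differences of these 5 from CX C57.YA lay between -0.20 and 0.09, none of which passed. H2-Aa, for example, measured 11.43 to 11.96 in CX C57BL/6J and 11.33 to 11.87 in CX C57.YA, above both sham groups at 10.40 to 11.09.

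Clock genes gave the largest number of calls of any list, with 6 higher and 3 lower of 14 tested against 11.1% and 11.7% of all probes, and 0 of them differed from each group. Arntl, a core activator of the clock, measured 6.71 to 7.04 in CX C57BL/6J, 6.84 to 7.22 in sham C57BL/6J, 6.64 to 7.18 in CX C57.YA and 9.06 to 9.41 in sham C57.YA. Arntl in CX C57BL/6J thus overlapped the first 2 of these groups and was separated from sham C57.YA alone. All mice were killed in the same hour of the morning. Of 6 tested genes of DNA replication and division, 5 were higher and 0 were lower (Mcm4, Mcm5, Mcm6, Pcna and Prc1), against 11.1% and 11.7% of all probes, with a median of 0.33. The other 9 of the 15 genes on that list, among them Mki67, Top2a, Ccnb1 and Cdk1, were not tested. Among the tested ones Mcm5, a subunit of the replicative helicase, differed from each group at 8.24 to 8.53 against 7.56 to 8.28. Among p53 targets the stress-induced gene Gadd45b differed from each group at 7.37 to 8.53 (overall difference 0.62, adjusted p = 0.0113), but its replicate 4 lay within the range of the others.

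Calcium handling was represented by Sln among the higher genes and by Jph2 among the lower. Jph2, junctophilin, which holds the sarcoplasmic reticulum close to the cell membrane, measured 7.87, 7.94, 7.97 and 7.79 in CX C57BL/6J and 8.06 to 8.51 elsewhere (overall difference -0.37 ± 0.07, adjusted p = 0.00257). Of the 14 tested genes of this list 2 were higher and 4 were lower, with a median of -0.05. Cacna1c, the cardiac calcium channel subunit, lay below all other arrays at 6.68 to 7.08 and was detected on 2 of the 4, but its comparison with sham C57BL/6J did not pass (adjusted p = 0.289). In the other cell type lists, for which the shares of all probes were again 11.7% lower and 11.1% higher, 4 of 11 endothelial markers were lower and 1 was higher, with Eng, an endothelial receptor, lower than in each group (-0.36, adjusted p = 0.00925), 3 of 6 pericyte markers were lower and 2 of 3 neutrophil markers were lower, while 2 of 8 fibroblast markers were higher. Lum, a fibroblast matrix gene, measured 11.41 to 11.68 in CX C57BL/6J and 11.37 to 11.60 in CX C57.YA, so that these groups overlapped. The tested markers of lung and thymus (2), lymphocytes (1), mast cells (2), red cells (3) and fat cells (1) gave 0 calls and 0 unadjusted p under 0.05, and the 1 marker of nerve and glia gave 0 calls and 1 such p. Of 12 interferon-stimulated genes, 5 were higher and 0 were lower, against the same 11.1% and 11.7%, with a median of 0.18, and of 15 sarcomere genes, 1 was higher and 5 were lower, with a median of -0.07.

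**Figure D5:**
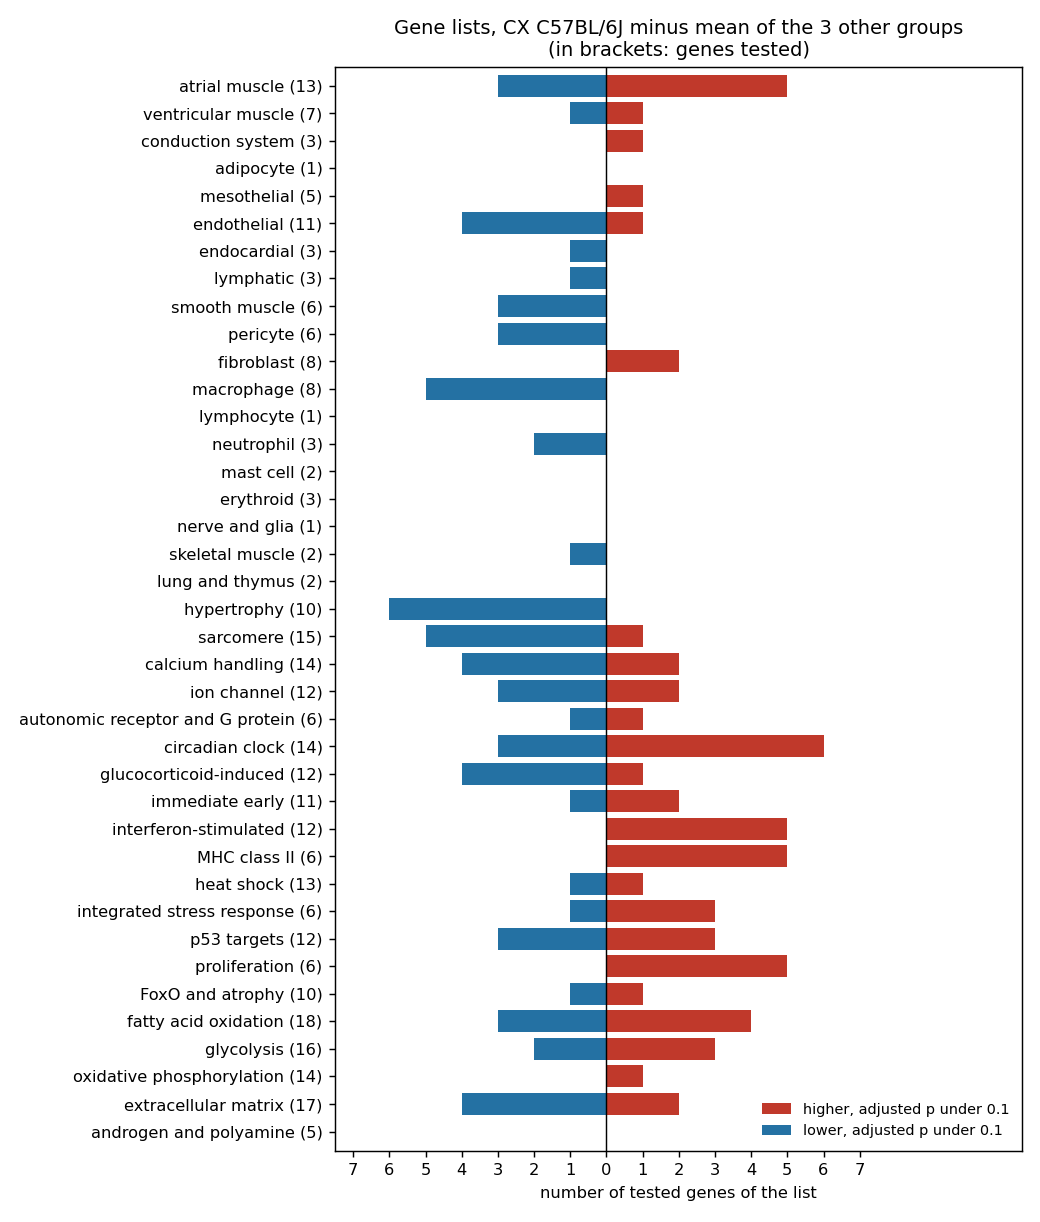
Number of tested genes (x axis, left lower and right higher, adjusted p under 0.1) in the overall difference for each gene list (y axis, with the number of genes tested in brackets). Atrial muscle has 5 higher genes, MHC class II and proliferation have 5 higher and 0 lower, hypertrophy has 6 lower and 0 higher, and the clock has calls in both directions.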

How the data were processed

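Left ventricle RNA of 16 mice was measured on 16 arrays. The authors deposited probe intensity from BeadStudio, not normalized, with a detection p-value per probe deposited beside it, and a table of quantile-normalized log2 values that the authors made with the Affy package. The probe names of the deposited log2 table go with other values than in the intensity file (the same name has the same values on 1 of 25697 lines), and under its names the ventricular genes Myl2 and Myl3 would be at 8.90 and 8.19 instead of 15.9 and 15.8. It was therefore paired by its values, which all matched within 5.43e-06, and used as an alternative only. The other 32 columns of bead statistics were not used. Probes were named through the platform annotation, updated by Entrez number, and 18 further names came from a symbol column in the study's supplement.

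Here the intensity was log2-transformed and then quantile-normalized over all arrays in R 4.3.3, with no background subtraction. Probes with a detection p of no more than 0.04 on 2 or more of the 4 arrays of any group were tested (12764 of 25697, of which 12059 had a name, for 8849 genes). Group means were fitted over 16 arrays with limma 3.58.1 (lmFit, eBayes), and p were adjusted by the Benjamini-Hochberg method over all tested probes. An adjusted p under 0.1, the false discovery rate of the study, was a call. The study's own F-test with shrunken variance and permutations was replaced by limma. Each array is a different mouse, and the number of arrays limits the precision. Where no array of a group detected a probe, the fold is a bound against the lowest detected signal of each array. The functions were tested on simulated data.

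Named genes were the 15 highest and 15 lowest by overall difference among named genes that met both criteria, with 1 probe per gene, the brightest of those that met both criteria, which for 5 genes (Abcb10, Galnt2, Hsd11b1, Myl12b and Rcan2) was not the brightest tested probe. They took in the markers Myl7, Myl4 and Sln; 1 of the 30 is not reported here. List members are named where their list is described. The members and gene lists were chosen with earlier results of these data known. Alternatives were neqc (offset 16), the deposited log2 table, scaling by the median, testing every probe, a stricter detection filter (0.01), ordinary variance, a 0.05 threshold, weighted arrays, a block on replicate numbers, the atrial covariate, fits on the compared groups alone, and leaving out each array. The fits without pairs of sham C57.YA arrays and the comparison of CX and sham C57.YA were chosen after seeing the data. The mice were spread over a pair of BeadChips in a way not given in the sources used here, so that the chip was not a term. Same-numbered arrays did not deviate together (correlations of -0.0856 to 0.204 over 24 pairs). Promoter sequences are those of RefSeq, GRCm38.p6, in which 22 of the 30 named genes matched.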

Additional observations from a re-analysis of the deposited data

Results flagged for a closer look

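Among the 29 named genes reported, 116 groups of 4 arrays were examined for 1 array far from the other 3 by Dixon's ratio (gap over range), and 9 groups exceeded its critical value, where chance flags about 1 group in 20. In CX C57BL/6J this was Tnxb in replicate 2 (ratio 0.916, 8.84 against 9.57 to 9.64). In CX C57.YA it was Sln in replicate 1 (ratio 0.946, 7.20 against 6.45 to 6.49), Prmt2 in replicate 3 (ratio 0.837) and Galnt2 in replicate 2 (ratio 0.888). In sham C57BL/6J it was Myl12b in replicate 2 (ratio 0.910), Inka2 in replicate 1 (ratio 0.969, 8.17 against 7.85 to 7.86), Ilrun in replicate 1 (ratio 0.835), Abcb10 in replicate 3 (ratio 0.836) and Mgst1 in replicate 4 (ratio 0.851).

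The difference between CX and sham mice was itself different in the 2 strains for 11 of these genes (interaction in limma, adjusted p under 0.1). Of all 12764 tested probes, 368 passed in the same test. The named genes had been chosen on the same arrays and group means, so these interactions describe the chosen genes alone. The interaction was 3.37 for Myl7, 3.03 for Myl4, 2.63 for Sln, 1.82 for Mybphl, 1.49 for Hamp, 0.82 for Dkk3 and 1.06 for Inka2, each larger in C57BL/6J. Of these, Myl7, Sln, Mybphl and Hamp were detected on 0 or 1 of the 8 C57.YA arrays, where a difference could not be measured. It was -0.65 for Tnxb, -0.90 for Abcb10, -0.86 for F13a1 and -0.63 for Hsd11b1. For the named probes of Inka2 and Abcb10 the estimates had opposite signs in the strains. They were 0.74 and -0.31 for Inka2 and -0.61 and 0.29 for Abcb10, of which the last did not pass (adjusted p = 0.324).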

How the results depend on the processing

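Array number limits all of these results, and the position of each array on the BeadChips was not known, so the planned block on the chip was not run. Of 839 values of the named genes under the alternatives, 811 kept their direction and their call in the overall difference, and the 28 others, 23 losses and 5 reversals, all came under the atrial covariate, which is built from 4 of these genes and nearly confounded with the group. The values that turned sign there were -0.24 for Mybphl, -0.535 for Hamp, 0.485 for Tnxb, 0.373 for Abcb10 and 0.307 for F13a1. Under this covariate 41 probes passed in the overall difference, 80 against sham C57BL/6J, 0 against CX C57.YA, 209 against sham C57.YA and 0 against each group, while 3347 lay outside the range. Median scaling left 563 probes against sham C57BL/6J and 132 against each group, and testing every probe left 169 against each group. At an adjusted p under 0.05 the counts were 1894 in the overall difference, 675 against sham C57BL/6J and 140 against each group. With the replicate number as a block, which does not pair the mice, 566 probes lay outside the range, and 7 of 16 arrays were closest to their own number. Without sham C57.YA replicates 1 and 2, 439 probes differed from each group, and without replicates 3 and 4, 1481 differed from sham C57.YA. Leaving out single arrays gave 1849 to 3165 probes in the overall difference, 694 to 1243 against sham C57BL/6J, 2163 to 3121 against CX C57.YA, 2430 to 3540 against sham C57.YA, 147 to 317 against each group and 315 to 582 outside the range. The count outside the range can only stay or rise when arrays are left out. The deposited log2 table gave the same 170 probes, and neqc kept 147 of them. Of 2176 list counts, 1952 stayed within 1.5 times, and the cause of the other changes was not tested.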
